A study of Homo sapiens with 24 samples.

Results

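PRR15L, TMEM45B and CDH17 are 3 of the 7223 genes listed in these TT-seq tables, and they were picked by symbol. Earlier results on the same libraries had singled them out for lower new RNA late after INTS8 loss, both without and with the INTS8-N211del variant, and for their known expression in intestinal epithelium. The values of those 2 lines therefore chose the genes and are given here as descriptions, with no test. Only the values of the third line, with tagged INTS11, were tested. In both lines PRR15L and TMEM45B were lower at 3 h than in every DMSO or 0 h library of the same line and batch. CDH17 differed little: at 3 h of dTAG13 its value was 1.12-fold below the vehicle value in the INTS8 line. In the N211del line CDH17 was above the controls in both batches, by log2 0.24 and 0.22, near the median gene's 0.21 and 0.18. With each library centred on its own median these values became -0.02 and 0.03.

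TT-seq reads out newly made RNA, which is tagged in living cells by a short pulse of a uridine analogue and pulled down before sequencing. DLD1 is a line from a human colorectal adenocarcinoma, here carrying a dTAG degron on a subunit of Integrator, so that dTAG13, a small molecule, sends the tagged protein to degradation. The question of the study is what the endonuclease and the phosphatase of the Integrator-PP2A complex (INTAC) each do in transcription. There were 12 groups of 2 libraries, 24 in all. In batch 1 the groups were the INTS8-dTAG line given dTAG13 or its vehicle DMSO for 3 h, the INTS8-dTAG line that also expresses INTS8-N211del ectopically (the N211del line) under the same treatments, and the INTS11-dTAG line likewise. In batch 2 the N211del and INTS11-dTAG lines were taken at 0, 1 and 3 h of dTAG13, with no vehicle group. All groups share the DLD1 background and a tagged subunit, and no untagged line was given dTAG13. The N211del line carries its variant beside the tagged INTS8, which is still present in DMSO and at 0 h. The sources used here do not say whether a line is a single clone. INTS11, INTS8 and PPP2CA RNA were not analysed here.

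Integrator acts on RNA polymerase II soon after initiation. Its INTS11 subunit cuts nascent RNA, and INTS8 helps to hold the phosphatase PP2A, which removes phosphates that kinases place on the polymerase and its partners as elongation begins. CDH17 encodes liver-intestine cadherin, a cell adhesion protein of intestinal epithelium whose short cytoplasmic tail does not bind catenins, and which is widely used as a marker of intestinal tumours. TMEM45B encodes a protein that crosses the membrane several times, and PRR15L encodes a small proline-rich protein. Both are expressed in epithelia of the gut, and their molecular functions are less well described.

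The deposited values behaved as whole-number units per kilobase of gene, introns included. They are called units per kb here and can be compared between genes; batch 2 values also carry a library factor, so each batch has its own scale. Library totals ran from 5517104 to 8119831 units in batch 1, and from 8709275 to 11266619 in batch 2. Of 11 defining colorectal epithelial markers 8 were listed: EPCAM (111 to 156), CDH1 (50.1 to 68.0) and KRT8 (586 to 1020 units per kb) were high in every library, while KRT20 (0 to 0.126) and LGALS4 (0.240 to 1.62), markers of differentiated colonic cells, were at or near 0. Of 12 immune and 8 endothelial markers 0 had values here, and of 12 fibroblast markers 1 did, COL1A1, at 0 to 0.318. In 6 of the 12 replicate pairs the libraries differed by no more than counting noise; they are labelled biological duplicates, so n = 2 was kept, and p-values measure only the spread between such libraries.

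In the INTS8 line, 3 h of dTAG13 went with far lower new RNA of PRR15L and TMEM45B and little difference in CDH17. PRR15L, the most highly transcribed of the 3 per unit length, had 17.9 and 15.4 units per kb in the dTAG13 libraries, against 73.6 and 80.4 in the DMSO libraries. TMEM45B had 1.70 and 1.45 in the dTAG13 libraries, against 10.4 and 12.3 in the DMSO libraries. CDH17 had 16.1 and 14.9 in the dTAG13 libraries, against 17.2 and 17.6 in the DMSO libraries. For each gene both dTAG13 libraries lay below both DMSO libraries, by a wide margin for PRR15L and TMEM45B and a narrow one for CDH17. The share of all genes without overlap was not counted here. The dTAG13 libraries held more units in all, 8119831 and 7576278, against 7311323 and 7419322 in the DMSO libraries. Batch 1 values carry no library factor, so these totals enter them unscaled, and the part of sequencing depth in the totals was not tested. Among all 6579 genes tested in batch 1, 21.0% were called lower in this comparison with limma at an adjusted p under 0.05, 1379 genes, or 904 without the second dTAG13 library, a share that says nothing of genes chosen on it. In bulk cultures, fewer cells making an RNA and less RNA made per cell cannot be told apart.

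The fold changes put TMEM45B and PRR15L at the bottom of the range over all genes. Both were chosen for falls in this line and in the N211del line, so their ranks in either line are descriptions only. TMEM45B was 6.82-fold lower (log2 -2.77, SE 0.16), the lowest value of all 6579 genes. PRR15L was 4.61-fold lower (log2 -2.20, SE 0.08), rank 5 from the lowest. CDH17 stood at log2 -0.17 (SE 0.10, rank 1595), or at -0.27 once each library was centred on its own median, while the median gene stood at 0.06. The TMEM45B values in the dTAG13 libraries rest on 75 and 64 units over a 44154 bp gene, with 95% exact Poisson intervals of 1.34 to 2.13 and 1.12 to 1.85 units per kb, which cover counting error only. PRR15L, whose gene is 5911 bp long, lay above 48.6 and 44.7% of the genes listed in the dTAG13 libraries, against 94.9 and 95.4% in the DMSO libraries. TMEM45B lay above 7.11 and 6.51% of genes in the dTAG13 libraries and above 33.8 and 38.6% in the DMSO libraries.

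**Figure D1:**
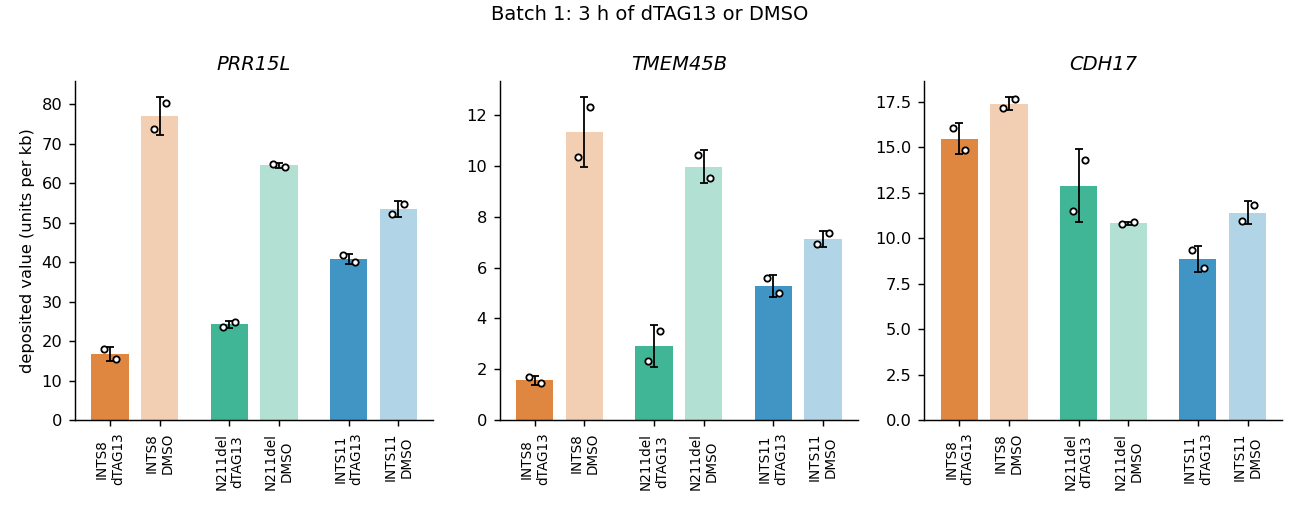
Batch 1 values (vertical axis, units per kb of gene) of PRR15L, TMEM45B and CDH17 after 3 h of dTAG13 (dark bars) or DMSO (light bars) in the INTS8, N211del and INTS11 lines. Bars are means, error bars are SD and circles are the 2 libraries of a group. PRR15L averages 16.7 with dTAG13 and 77.0 with DMSO in the INTS8 line, whereas CDH17 averages 15.5 and 17.4 there.

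The N211del line, whose falls were part of the same choice, also had lower PRR15L and TMEM45B with dTAG13 in batch 1, with smaller differences. PRR15L had 23.7 and 24.9 units per kb in its dTAG13 libraries, against 65.0 and 64.1 in its DMSO libraries. TMEM45B had 2.33 and 3.51 in the dTAG13 libraries, against 10.4 and 9.51 in the DMSO libraries. These groups stood clear of each other for both genes, and the share of all genes that do so in this comparison was not counted. The dTAG13 value was 2.65-fold lower for PRR15L (log2 -1.41, SE 0.08, rank 7 from the lowest) and 3.39-fold lower for TMEM45B (log2 -1.76, SE 0.16, rank 3). Over all genes 7.10% were called lower here and 48.5% higher, and the median gene stood at log2 0.21. The dTAG13 libraries held 6179411 and 7019655 units in all, against 5614822 and 5517104 in the DMSO libraries, and these totals enter the values unscaled. After centring of libraries on their medians the calls were 1771 higher and 2316 lower of 6579. TMEM45B was at -2.05 without the second dTAG13 library and at -1.48 without the first.

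CDH17 lay on the other side of its controls in the N211del line. It had 11.5 and 14.3 units per kb in the dTAG13 libraries, against 10.8 and 10.9 in the DMSO libraries. Its dTAG13 libraries were both above the DMSO libraries but far apart from each other. The log2 fold change of 0.24 (SE 0.10) was close to the median gene's 0.21, and after such centring it turned to -0.02. It was 0.08 without the second dTAG13 library and 0.40 without the first. The second library also held more units in all, 7019655 against 6179411 in the first. Such totals enter the values of this batch unscaled, and the part of sequencing depth in the result was not tested.

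The INTS11 line, whose values the choice of genes did not use, showed lower values of all 3 genes at 3 h, of modest size. PRR15L had 41.8 and 39.9 units per kb in the dTAG13 libraries, against 52.1 and 54.8 in the DMSO libraries. TMEM45B had 5.59 and 4.98 in the dTAG13 libraries, against 6.91 and 7.36 in the DMSO libraries. CDH17 had 9.37 and 8.37 in the dTAG13 libraries, against 10.9 and 11.8 in the DMSO libraries. The groups did not overlap for any of the 3, and the share of all genes without overlap was not counted. PRR15L was 1.31-fold lower (log2 -0.39, SE 0.08, limma adjusted p = 0.000452 over all genes tested). TMEM45B was 1.34-fold lower (log2 -0.43, SE 0.16, limma adjusted p = 0.0466), and CDH17 was 1.28-fold lower (log2 -0.36, SE 0.10, limma adjusted p = 0.00618). All 3 thus fell, in a comparison where 19.8% of all genes were called lower (1300 genes, 750 without the second DMSO and 713 without the second dTAG13 library) and the median gene stood at log2 -0.03.

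Of these calls only that for PRR15L held under every alternative tried. TMEM45B lost it without any single library of the 4 (limma adjusted p = 0.0557 without dTAG13 replicate 1, 0.202 without dTAG13 replicate 2, 0.0833 without DMSO replicate 1 and 0.167 without DMSO replicate 2). CDH17 lost it without dTAG13 replicate 2 (0.0839) or DMSO replicate 2 (0.0538), and with replicate pairs that agree within counting noise averaged to 1 sample the limma adjusted p was 0.0664 for TMEM45B and 0.0583 for CDH17. Whether the INTS8 and N211del lines differ from the INTS11 line in these responses was not tested, since the genes were chosen on the responses of the INTS8 and N211del lines.

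In the time course of batch 2, PRR15L in the N211del line was lower than at 0 h only at 3 h, while TMEM45B was slightly lower at 1 h and much lower at 3 h. PRR15L had 24.3 and 27.8 units per kb at 0 h, 32.2 and 31.0 at 1 h, and 13.3 and 12.8 at 3 h. TMEM45B had 8.34 and 8.84 at 0 h, 7.72 and 6.67 at 1 h, and 2.85 and 2.91 at 3 h. CDH17 had 9.89 and 10.5 at 0 h, 13.9 and 14.4 at 1 h, and 12.03 and 11.8 at 3 h. PRR15L was highest at 1 h, and both genes were far lower at 3 h than at either earlier time. CDH17 was above its 0 h libraries at both later times. No group of a gene overlapped another in this line, and how many of all genes share this was not counted.

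From 1 to 3 h PRR15L and TMEM45B, both chosen for late falls in this line, changed by nearly the same amount. PRR15L was 2.41-fold lower at 3 h than at 1 h (log2 -1.27, SE 0.06, rank 17 from the lowest of 6950 genes). TMEM45B was 2.44-fold lower (log2 -1.29, SE 0.07, rank 16). CDH17 was at log2 -0.25 (SE 0.04) over these 2 h, or at -0.09 with libraries centred on their medians. The median gene stood at -0.13, and 35.0% of all genes were called lower between these times. In the first hour the genes differed from each other: log2 0.28 (SE 0.06) for PRR15L, -0.26 (SE 0.07) for TMEM45B and 0.47 (SE 0.04) for CDH17, beside a median gene at 0.31, with 66.0% of genes called higher and 4.92% lower. Centred on library medians the first-hour values were -0.07 for PRR15L, where the sign turned, -0.61 for TMEM45B, beside -1.74 over the whole 3 h, and 0.12 for CDH17. PRR15L was at 0.18 without the first 0 h library, and TMEM45B at -0.15 without the second 1 h library.

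Over the whole 3 h, PRR15L was 1.98-fold lower than at 0 h in the N211del line (log2 -0.99, SE 0.06, rank 30) and TMEM45B 2.92-fold lower (log2 -1.54, SE 0.07, rank 6). CDH17 was at log2 0.22 (SE 0.04), next to the median gene's 0.18, and at 0.03 with libraries centred on their medians. Here 13.8% of all genes were called lower and 49.7% higher, and with centring the calls were 2148 higher and 2436 lower of 6950. Batch 2 has no vehicle group, so time in culture and dTAG13 cannot be told apart there.

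**Figure D2:**
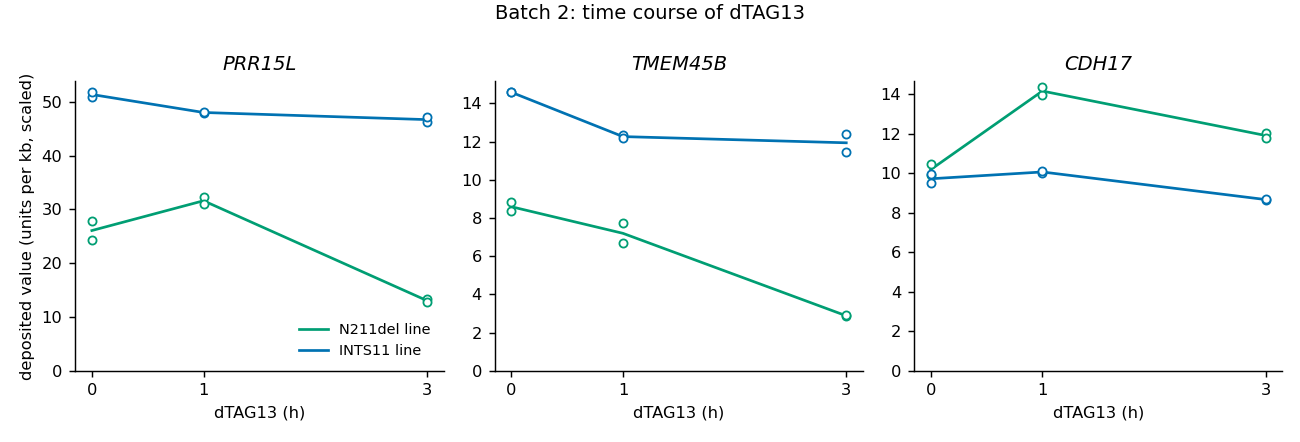
Batch 2 values (vertical axis, units per kb with the library factor) against hours of dTAG13 for PRR15L, TMEM45B and CDH17 in the N211del line (green) and the INTS11 line (blue). Circles are libraries, 2 at each time, and lines join the group means. In the N211del line PRR15L averages 26.1, 31.6 and 13.1 at 0, 1 and 3 h, and CDH17 averages 10.2, 14.2 and 11.9.

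In the INTS11 line the same 3 h brought small changes. PRR15L had 50.8 and 51.9 units per kb at 0 h, 47.9 and 48.2 at 1 h, and 46.3 and 47.1 at 3 h. TMEM45B had 14.6 in both 0 h libraries, 12.4 and 12.2 at 1 h, and 12.4 and 11.5 at 3 h. CDH17 had 9.96 and 9.48 at 0 h, 10.0 and 10.1 at 1 h, and 8.64 and 8.69 at 3 h. PRR15L lay slightly lower at each later time. TMEM45B lay lower at both later times, with 1 h and 3 h overlapping, and CDH17 lay lower at 3 h only. TMEM45B fell by 0.25 on the log2 scale at 1 h (SE 0.07, limma adjusted p = 0.0117) and was 1.22-fold lower at 3 h (log2 -0.29, SE 0.07, limma adjusted p = 0.00588). CDH17 stood at log2 0.05 at 1 h (SE 0.04, limma adjusted p = 0.351) and fell by 0.16 at 3 h against 0 h (SE 0.04, limma adjusted p = 0.0103), and by 0.21 between 1 and 3 h (limma adjusted p = 0.0210). PRR15L passed in none of the 3 comparisons: log2 -0.10 at 1 h (SE 0.06, limma adjusted p = 0.173), -0.14 at 3 h (SE 0.06, limma adjusted p = 0.0650), and -0.04 between 1 and 3 h (limma adjusted p = 0.664). TMEM45B stood at -0.04 between 1 and 3 h (SE 0.07, limma adjusted p = 0.735).

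Of the 3 genes, 1 was thus called lower at 1 h, 2 at 3 h against 0 h and 1 between 1 and 3 h, beside 9.86, 19.3 and 15.1% of all genes tested. The median gene stood at log2 0.16, 0.08 and -0.09 in these comparisons. Centring libraries on their medians brought PRR15L past the threshold at 1 h (log2 -0.25, limma adjusted p = 0.00316) and at 3 h (log2 -0.19, limma adjusted p = 0.0122), turned CDH17 at 1 h to a called -0.10 (limma adjusted p = 0.0183), left CDH17 between 1 and 3 h uncalled (log2 -0.11, limma adjusted p = 0.0817), and turned PRR15L and TMEM45B between 1 and 3 h to 0.06 each, uncalled. The calls of TMEM45B were lost without the second 1 h library (limma adjusted p = 0.0560 at 1 h) and without the second 3 h library (0.0508 at 3 h). Those of CDH17 were lost at 3 h against 0 h without the first 0 h library (limma adjusted p = 0.0627) or the first 3 h library (0.0526), and between 1 and 3 h without the first 1 h library (0.133), the first 3 h library (0.0885) or the second 3 h library (0.128). With pairs that agree within counting noise averaged, every one of these 4 calls was lost, with limma adjusted p = 0.0728 and 0.0856 for TMEM45B at 1 and 3 h, and 0.118 and 0.203 for CDH17 at 3 h against 0 h and against 1 h.

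**Figure D3:**
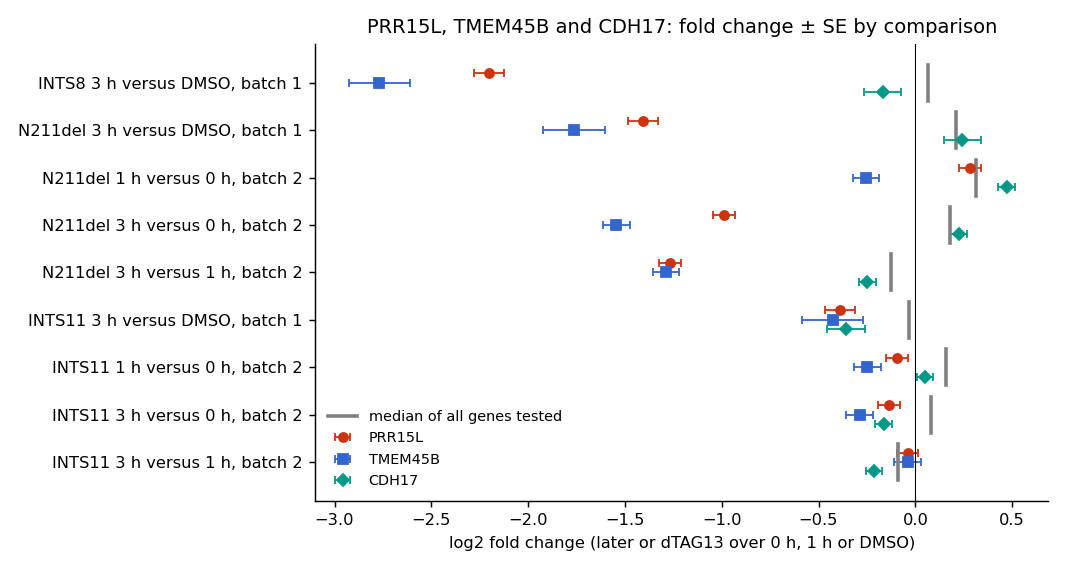
Log2 fold change (horizontal axis, dTAG13 or later time over DMSO or earlier time) of PRR15L (circles), TMEM45B (squares) and CDH17 (diamonds) in 9 comparisons, with SE bars, and the median of all genes tested (grey bar). PRR15L and TMEM45B lie between -2.77 and -0.99 in the N211del and INTS8 comparisons that end at 3 h, while CDH17 lies between -0.36 and 0.47 throughout.

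The levels without dTAG13 also differed between the lines, and not in the same way in the 2 batches. In DMSO in batch 1, PRR15L averaged 77.0 ± 4.79 units per kb in the INTS8 line and 64.5 ± 0.598 in the N211del line, against 53.5 ± 1.91 in the INTS11 line (SD, n = 2 each). At 0 h in batch 2 it averaged 26.1 ± 2.50 in the N211del line against 51.4 ± 0.774 in the INTS11 line (SD, n = 2 each). TMEM45B averaged 11.3 ± 1.38 in the INTS8 line and 9.97 ± 0.641 in the N211del line, against 7.13 ± 0.320 in the INTS11 line, in DMSO in batch 1, and 8.59 ± 0.349 in the N211del line against 14.6 in both INTS11 libraries at 0 h in batch 2 (SD, n = 2 each). Both genes were thus higher in the N211del than in the INTS11 line in batch 1 (log2 0.27 for PRR15L and 0.48 for TMEM45B) and lower in batch 2 (log2 -0.98 and -0.76). The 2 groups of each pair did not overlap, and the share of all genes without overlap was not counted. With limma, another measure, 19.7% of all genes were called higher in the batch 1 comparison and 31.6% lower in the batch 2 one. The batches differ in treatment, vehicle against none, and carry separate batch labels, and these cannot be told apart.

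CDH17 showed another order. It was highest in the INTS8 line, at 15.5 ± 0.851 units per kb with dTAG13 and 17.4 ± 0.347 with DMSO, and the INTS8 DMSO libraries stood above the INTS11 DMSO libraries by log2 0.61 (SE 0.10). The same comparison gave 0.52 for PRR15L and 0.65 for TMEM45B. Among all genes, 26.8% were called higher in the INTS8 than in the INTS11 line in DMSO. The N211del and INTS11 lines differed little in CDH17, by log2 -0.07 (SE 0.10) in DMSO in batch 1, 0.14 with libraries centred, and by 0.07 (SE 0.04) at 0 h in batch 2, where the libraries overlapped. In batch 1 the 6 groups of CDH17 ran, from high to low, INTS8 with DMSO, INTS8 with dTAG13, N211del with dTAG13, INTS11 with DMSO, N211del with DMSO and INTS11 with dTAG13, and N211del with dTAG13 overlapped the INTS11 DMSO group next below it. PRR15L ran INTS8, N211del and INTS11 with DMSO, then INTS11, N211del and INTS8 with dTAG13, with no overlap between neighbours. TMEM45B ran in that same order, and its INTS8 and N211del DMSO groups overlapped. With libraries centred on their medians, the INTS8 and N211del lines changed places in DMSO for both genes. PRR15L then stood above the INTS11 line by log2 0.42 in the INTS8 line and 0.48 in the N211del line. For TMEM45B these values were 0.55 and 0.69.

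The genes whose pattern over the 12 groups was most like each of the 3 were found by Pearson's r of group means on the log2 scale, each batch centred on its own mean, among 6268 other genes with a mean of at least 1 in both batches. These r values describe groups that share libraries and batches, and carry no test. TMEM45B and PRR15L were each other's nearest gene, with r = 0.985. Both were chosen for late falls in the INTS8 and N211del lines, whose groups are among the 12, so the choice favoured a high r. Next came BLVRA, a biliverdin reductase, for both (0.979 with PRR15L and 0.973 with TMEM45B). PRR15L was further followed by LRRC75A (0.960), RAB40C, a Rab-like GTPase (0.954), and PLD1, a phospholipase D (0.946). TMEM45B was followed by MAP2, a microtubule-associated protein (0.967), LRRC75A (0.963) and ARAP1, a GTPase-activating protein (0.953).

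The sizes of the changes differed between these genes. In the INTS8 line at 3 h, log2 fold changes were -1.25 for BLVRA, -1.55 for LRRC75A, -1.91 for MAP2, -1.49 for PLD1, -0.83 for ARAP1 and -0.64 for RAB40C, all smaller than the -2.20 of PRR15L and -2.77 of TMEM45B, which were chosen for falls there. In other comparisons some were as large: at 3 h against 0 h in the N211del line MAP2 stood at -1.18, beside -0.99 for PRR15L and -1.54 for TMEM45B, and in the INTS11 line of batch 1 PLD1 stood at -0.47 and ARAP1 at -0.49, beside -0.39 for PRR15L and -0.43 for TMEM45B. At 3 h in the INTS11 line of batch 2, MAP2 stood at -0.39 and PLD1 at -0.40, beside -0.14 for PRR15L and -0.29 for TMEM45B. In the N211del line of batch 2, BLVRA stood at -0.15 at 1 h and -0.85 at 3 h, against 0 h. CDH17 had r = -0.27 with PRR15L and -0.31 with TMEM45B over the 12 groups. Its nearest genes were AKIRIN2, a nuclear factor (0.967), BPNT2, a Golgi phosphatase (0.966), CXADR, an adhesion receptor of tight junctions (0.958), PARM1 (0.952) and MLEC, an endoplasmic reticulum lectin (0.947).

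None of the 3 measured genes on either side of PRR15L and of TMEM45B in the RefSeq gene order came near their drop in the INTS8 line. Both genes were chosen for falls in this line, so that gap is a description only. SP6, a zinc finger transcription factor and the nearest measured gene on one side of PRR15L on chromosome 17, rose by log2 2.46 (SE 0.08, limma adjusted p = 2.17e-16) where PRR15L stood at -2.20. On the other side CDK5RAP3 stood at -0.17 (limma adjusted p = 0.126) and NFE2L1 rose by 0.57 (limma adjusted p = 2.67e-06). The other measured neighbours, KPNB1, OSBPL7 and CBX1, fell by 0.35, 0.76 and 0.33 (limma adjusted p = 0.000166, 1.25e-06 and 0.00128). SP6 also rose in the N211del line, by 2.06 in batch 1 (limma adjusted p = 6.67e-15) and by 2.89 at 3 h in batch 2 (limma adjusted p = 1.84e-07), and in the INTS11 line, by 1.39 in batch 1 (limma adjusted p = 9.89e-11). It was already 2.66 higher at 1 h in the N211del line (limma adjusted p = 2.65e-07), when PRR15L was at 0.28.

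Beside TMEM45B on chromosome 11, BARX2, a homeobox factor, rose by log2 0.51 (limma adjusted p = 3.79e-05) in the INTS8 line at 3 h, and NFRKB stood at -0.03 (limma adjusted p = 0.795). Further out, APLP2, a relative of the amyloid precursor protein, rose by 1.01 (limma adjusted p = 1.23e-10), ST14, the epithelial protease matriptase, fell by 0.42 (limma adjusted p = 2.35e-05), and ST3GAL4 and ARHGAP32 were not called. Around CDH17 on chromosome 8, GEM rose by 0.51 (limma adjusted p = 3.00e-06), PIP4P2 rose by 0.30 (limma adjusted p = 0.0111, lost at 0.25 without the first DMSO library and at 0.17 without the first dTAG13 library) and ESRP1, an epithelial splicing regulator, fell by 0.30 (limma adjusted p = 0.00160), while TMEM67, TRIQK and VIRMA were not called. CDH17 overlaps a long non-coding RNA gene and a pseudogene in RefSeq, neither of them analysed here, and reads of CDH17 and of these cannot be told apart where the counting ignored strand. PRR15L and TMEM45B overlap no other RefSeq gene.

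**Figure D4:**
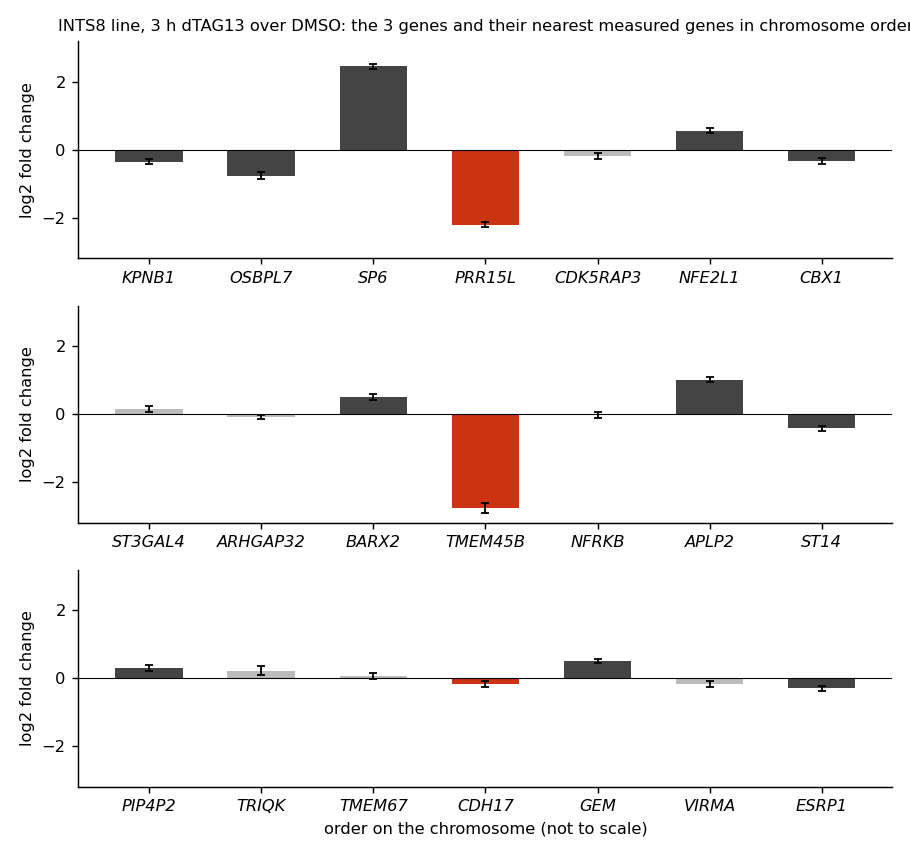
Log2 fold change (vertical axis) in the INTS8 line, 3 h dTAG13 over DMSO, of PRR15L (top), TMEM45B (middle) and CDH17 (bottom) in red, and of the 3 nearest measured genes on each side in chromosome order. Dark grey bars passed an adjusted p of 0.05 with limma, light grey bars did not, and error bars are SE. SP6, at 2.46, stands next to PRR15L, at -2.20.

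The measured relatives of PRR15L and TMEM45B did not come near the drop for which both genes were chosen. PRR15, the paralogue of PRR15L, fell by log2 0.32 in the INTS8 line at 3 h (SE 0.11, limma adjusted p = 0.0214), at -0.15 and uncalled without the first dTAG13 library, at -0.26 and uncalled without the second DMSO library, and at an adjusted p of 0.0777 with limma voom, and it stood at -0.01 in the N211del line of batch 1 (limma adjusted p = 0.927). In the N211del line of batch 2, PRR15 rose against 0 h by 0.74 at 1 h (limma adjusted p = 9.83e-06) and by 0.21 at 3 h (0.0265). From 1 to 3 h it fell there by 0.53 (0.000893). The median gene stood at 0.31, 0.18 and -0.13 in these comparisons. TMEM45A, the paralogue of TMEM45B, averaged 0.893 units per kb in batch 1 and rose by 1.94 in the INTS8 line (SE 0.18, limma adjusted p = 4.23e-09), by 1.88 in the N211del line (limma adjusted p = 6.92e-09) and by 1.10 in the INTS11 line (limma adjusted p = 4.76e-05). Among other cadherins, CDH1, the classical epithelial cadherin, stood at 0.06 in the INTS8 line (SE 0.08, limma adjusted p = 0.490). CDH3, P-cadherin, fell there by 0.33 (SE 0.08, limma adjusted p = 0.000960), and CDH26 rose by 0.58 (SE 0.17, limma adjusted p = 0.00741).

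Other epithelial genes were read from 5 lists holding 148 genes, none of them PRR15L, TMEM45B or CDH17, of which 65 passed the filter on low values in batch 1. In the INTS8 line at 3 h, 21 of the 65 were called higher and 25 lower with limma (32.3 and 38.5%), beside 34.6 and 21.0% of all genes, and their median was log2 -0.02 against 0.06 for all genes. After centring of libraries the counts were 19 higher and 30 lower, and over all genes 2017 and 2398 of 6579. No gene in these lists came as low as PRR15L or TMEM45B, which were chosen for falls in this line, so the gap follows from the choice. The lowest was NECTIN4, a nectin of adherens junctions, at -1.30 (SE 0.11, limma adjusted p = 1.64e-09). From 1 to 3 h in the N211del line NECTIN4 stood at -1.31 (limma adjusted p = 0.000675), beside -1.27 for PRR15L and -1.29 for TMEM45B. Between these times 24 of 68 list genes were called lower and 2 higher (35.3% lower, beside 35.0% of all genes). Of the 27 cell junction genes 13 were called lower and 0 higher.

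In the INTS8 line, 10 of the 17 intestinal transcription factors tested were called higher and 3 lower (58.8 and 17.6%), beside the 34.6 and 21.0% of all genes, with a median of log2 0.31. FOXA3, a forkhead factor, rose by 3.89 (SE 0.41, limma adjusted p = 0.000118), at a low level that averaged 2.16 units per kb over batch 1. HES1, a Notch target that restrains secretory fate, rose by 1.44 (limma adjusted p = 1.18e-12) and KLF4, a factor of differentiated colonic epithelium, by 1.42 (limma adjusted p = 2.39e-07). CDX2, the homeobox factor of intestinal identity and a known activator of CDH17, rose slightly, by 0.19, and was among the 10 called higher. OVOL2 fell by 0.73 (limma adjusted p = 3.89e-07). Of 9 tested enterocyte and goblet genes 6 were called higher and 1 lower (66.7 and 11.1%), with a median of 1.16. MUC13, a membrane mucin, rose by 1.85 (limma adjusted p = 4.16e-11) and DPP4, a brush border peptidase, by 1.37 (limma adjusted p = 7.21e-08), whereas TSPAN8, a tetraspanin, fell by 0.57 (limma adjusted p = 4.12e-06).

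Of 8 brush border genes tested in the INTS8 line, 3 were called higher and 3 lower (37.5% each), with a median of log2 0.09, and the share called higher was near the 34.6% of all genes. MYO1D, an unconventional myosin, fell by 1.15 (limma adjusted p = 2.99e-10) and MYO1E rose by 1.05 (limma adjusted p = 6.10e-10). Of 27 tested cell junction genes 2 were called higher and 15 lower in that line (7.41 and 55.6%), beside 34.6 and 21.0% of all genes, with a median of -0.26. CGN, the tight junction protein cingulin, fell by 0.94 (limma adjusted p = 6.74e-08) and PKP2, a desmosomal plakophilin, by 0.89 (limma adjusted p = 1.53e-09), and CLDN1 rose by 0.45 (limma adjusted p = 0.00224, lost at 0.29 without the first DMSO library). Of 4 tested epithelial keratins 3 were called lower, KRT18 by 0.30 (limma adjusted p = 0.000173). The keratin count was 1 without the second dTAG13 library and 1 with pairs averaged.

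The same lists were counted in the other lines. In the N211del line at 3 h of batch 1, 30 of the 65 were called higher and 8 lower (46.2 and 12.3%), beside 48.5 and 7.10% of all genes, and with libraries centred 21 and 27. The cell junction genes there had 7 called higher and 4 lower of 27, with a median of log2 0.05 beside 0.21 for all genes. In the INTS11 line of batch 1 the junction genes had 3 called higher and 9 lower, with a median of -0.15. At 3 h in batch 2 they had 5 called higher and 11 lower in the N211del line (median -0.08) and 5 higher and 8 lower in the INTS11 line (median -0.03). Of 17 transcription factors 12 were called higher and 1 lower in the N211del line of batch 1, and 4 higher and 1 lower in the INTS11 line. Of 8 brush border genes 5 were called higher and 1 lower in that N211del comparison, and 3 lower in the INTS11 one. At 3 h in batch 2, 13 of 18 transcription factors were called higher and 2 lower in the N211del line. The INTS11 line had 11 and 1. Among 9 enterocyte and goblet genes in batch 1, 6 were called higher and 0 lower in the N211del line. The INTS11 line had 5 and 0 (55.6% higher, beside 19.4% of all genes). Among 11 at 3 h in batch 2, 7 were called higher and 1 lower in the N211del line. The INTS11 line had 8 and 0 (72.7% higher, beside 36.0%). In the N211del line at 3 h of batch 2, 31 of 68 were called higher and 18 lower (45.6 and 26.5%), beside 49.7 and 13.8%, and with libraries centred 22 and 29. In the INTS11 line, 12 were called higher and 13 lower of 65 in batch 1 (18.5 and 20%, beside 19.4 and 19.8% of all genes), and 25 higher and 14 lower of 68 at 3 h in batch 2 (36.8 and 20.6%, beside 36.0 and 19.3%), or 21 and 22 with libraries centred. The lower count of the N211del line in batch 1 was 5 without either DMSO library and 4 without the first dTAG13 library. That of the INTS11 line in batch 1 was 6 without the second DMSO or the first dTAG13 library and 5 without the second dTAG13 library, and its count in batch 2 was 8 without the second 3 h library.

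**Figure D5:**
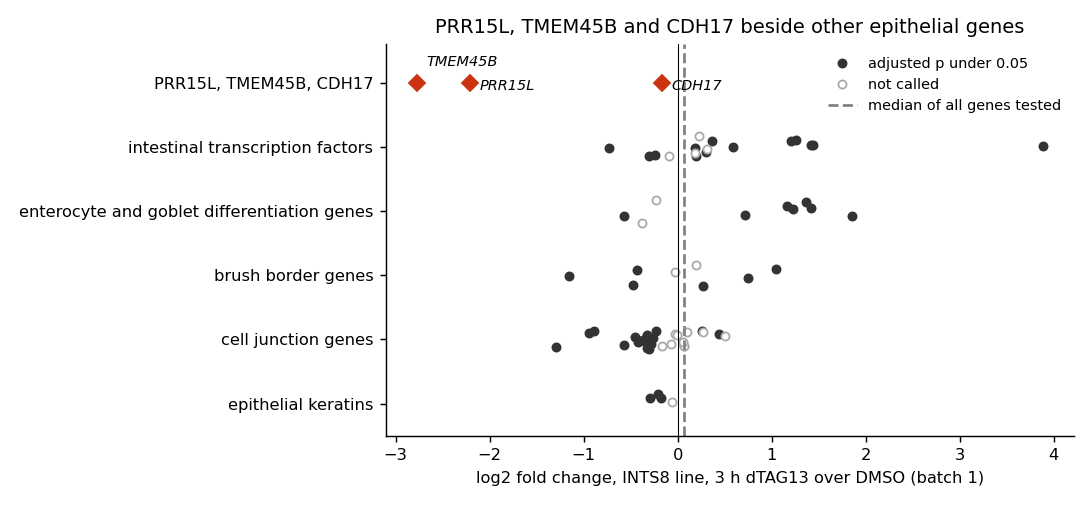
Log2 fold change (horizontal axis) in the INTS8 line, 3 h dTAG13 over DMSO, of PRR15L, TMEM45B and CDH17 (red diamonds) and of the tested genes of 5 epithelial lists (filled circles, adjusted p under 0.05 with limma; open circles, not called). The dashed line is the median of all genes, 0.06. TMEM45B, at -2.77, and PRR15L, at -2.20, both chosen for falls in this line, lie below every listed gene. FOXA3, at 3.89 (SE 0.41) and averaging 2.16 units per kb over batch 1, lies above all others.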

How the data were processed

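TT-seq was done on 24 DLD1 libraries, grouped by their titles and characteristics (the treatment protocol gives 3 h for all). The submitters' processing notes name Trim Galore 0.6.6, Picard 2.23.3, SAMtools 1.9, STAR 2.7.5c and DESeq2 1.26.0, and the builds mm10 and hg19. The kit was stranded, per the labels' protocols; the sources used here do not give the strand setting of the counting. The file headers say FPKM, but the deposited values behave as a signal: whole numbers over gene length in batch 1, with a further factor for each library in batch 2 (0.565 to 0.753; its origin is not stated). A length could be fitted for all 6832 genes (median 33609.5 bp), and 99.9 to 100% of values came out whole within 0.02 units. No count test was used in the main fit, and limma voom on the whole-number units was run only as an alternative.

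Each batch had its own fit, of genes averaging at least 0.1 over its libraries: 6579 genes in batch 1, 6950 in batch 2, PRR15L, TMEM45B and CDH17 in both. The fit was limma 3.58.1 (R 4.3.3) on log2(value + 0.1), a scale that understates changes of low genes, with 1 mean per group, trended and robust empirical Bayes, two-sided, and Benjamini-Hochberg adjustment over all genes of a comparison with a threshold of 0.05. All adjusted p-values are from limma. The procedure was tested on simulated data. The genes, the lists and the tests were chosen with earlier results of these data known. Named neighbours are the 3 measured genes on each side in the RefSeq order (GRCh38 gene table, names and order only), and named list genes are among the 3 largest called rises and 3 largest called falls of a list in the INTS8 line, with a mean of at least 1 unit per kb in batch 1; CDX2 was added after its values were seen. Of 7223 symbols, 7169 are in the symbol table. Alternatives were pseudocounts of 0.01 and 1, no filter or a mean of at least 1, centring, a replicate block, averaging of replicate pairs that agree within counting noise, only the 4 libraries compared, voom, and leaving out each library. Python 3.11.15 was used with matplotlib 3.10.9, scipy 1.17.1, pandas 2.3.3 and numpy 2.4.6.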

Additional observations from a re-analysis of the deposited data

Results flagged for a closer look

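For 4 responses every library of a line lay on one side of its controls and every library of another line on the opposite side. None of these differences was tested, and how many of all genes show such a pattern was not counted. CDH17 at 3 h in batch 1 was above DMSO in the N211del line and below it in the INTS11 line, a difference between the 2 log2 responses of 0.60, and below it also in the INTS8 line, a difference of 0.41. CDH17 at 3 h against 0 h in batch 2 was above in the N211del line and below in the INTS11 line, a difference of 0.39. PRR15L at 1 h against 0 h was above in the N211del line and below in the INTS11 line, a difference of 0.38. With libraries centred on their medians the signs were opposite in the CDH17 comparison at 3 h of batch 2 alone (0.03 in the N211del line, -0.22 in the INTS11 line). CDH17 in batch 1 then stood at -0.02 in the N211del line, -0.32 in the INTS11 line and -0.27 in the INTS8 line, and PRR15L at 1 h at -0.07 (N211del) against -0.25 (INTS11). The differences, in the order given above, became 0.31, 0.26, 0.24 and 0.18. CDH17 in the N211del line of batch 1 stood at 0.085 without the second dTAG13 library. The median gene stood higher in the N211del line than in the INTS11 line in each of these comparisons, at log2 0.21 against -0.03 in batch 1, 0.18 against 0.08 at 3 h in batch 2 and 0.31 against 0.16 at 1 h.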

How the results depend on the processing

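PRR15L and TMEM45B kept their direction at 3 h in the INTS8 and N211del lines under every alternative run. Centring each library on its median gave, in the INTS8 line, -2.31 for PRR15L and -0.27 for CDH17; in the N211del line of batch 1, -1.67 for PRR15L, -2.02 for TMEM45B and -0.018 for CDH17, whose sign turned; in the N211del line of batch 2, -0.070 (turned), -1.19 and -1.12 for PRR15L at 1 h, 3 h and from 1 to 3 h, -0.61, -1.74 and -1.14 for TMEM45B, and 0.12, 0.028 and -0.094 for CDH17. In the INTS11 line centring gave PRR15L -0.25 at 1 h and -0.19 at 3 h, both then called, and 0.061 from 1 to 3 h (turned), TMEM45B 0.061 from 1 to 3 h (turned), and CDH17 -0.10 at 1 h (turned, called) and -0.11 from 1 to 3 h (no longer called). It also turned CDH17 between the N211del and INTS11 lines in DMSO to 0.14, and in the N211del line ARHGAP32 to -0.10 and -0.083, NFRKB to -0.031, CXADR to -0.031 and -0.026 and AKIRIN2 to -0.079. The centring removes the shift of the median gene by construction.

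A pseudocount of 1 gave TMEM45B -2.26 in the INTS8 line and -1.50, -1.31 and -1.08 in the N211del line (3 h in batch 1, then 3 h against 0 h and against 1 h), and a pseudocount of 0.01 gave it -0.43 in the INTS11 line of batch 1, at a limma adjusted p of 0.05003 that no longer passed. Averaging pairs within counting noise leaves fewer samples and lost the calls of TMEM45B (-0.42) and CDH17 (-0.36) in the INTS11 line of batch 1, of TMEM45B at 1 h (-0.25) and 3 h (-0.29), and of CDH17 at 3 h (-0.16) and from 1 to 3 h (-0.21). With only the 4 libraries compared, PRR15L at 3 h in the INTS11 line was called (-0.14) and CDH17 from 1 to 3 h was not (-0.21); the cause was not tested.

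The counts of list genes called lower moved to 2 with averaging and 20 with 4 libraries in the INTS11 line of batch 1, to 27 with centring and 4 with averaging in the N211del line of batch 1, to 22 and 7 at 3 h in the INTS11 line of batch 2, and to 29 with centring at 3 h in the N211del line. The count called higher moved to 14 with averaging at 3 h in the INTS11 line. Over all genes, averaging gave 486 genes called lower (1300 without it) in the INTS11 line of batch 1, 836 (1379) in the INTS8 line and 263 (467) in the N211del line, and at 3 h in the INTS11 line of batch 2 it gave 650 (1344) lower and 1615 (2503) higher. Centring gave 2398 lower (1379) in the INTS8 line, 1771 (3191) higher and 2316 (467) lower in the N211del line of batch 1, and 2148 (3454) higher and 2436 (956) lower at 3 h in its batch 2. In the INTS8 line 4 junction genes were called higher with 4 libraries, and 1 keratin lower with averaging.

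With 1 library left out, the log2 fold changes ranged, in the INTS8 line, over -2.31 to -2.09 for PRR15L; in the N211del line over -2.05 to -1.48 for TMEM45B and 0.085 to 0.40 for CDH17 in batch 1, over 0.18 to 0.38 and -1.09 to -0.89 for PRR15L at 1 and 3 h, and over -0.36 to -0.15 at 1 h and -1.39 to -1.18 from 1 to 3 h for TMEM45B. In the INTS11 line they ranged over -0.51 to -0.34 for TMEM45B and -0.44 to -0.28 for CDH17 in batch 1, over -0.26 to -0.24, -0.34 to -0.23 and -0.095 to 0.016 for TMEM45B at 1 h, 3 h and from 1 to 3 h, and over -0.20 to -0.13 and -0.22 to -0.20 for CDH17 at 3 h and from 1 to 3 h. List genes called lower ranged over 5 to 12 and 8 to 15 in the INTS11 line (batch 1, then 3 h in batch 2), 4 to 12 in the N211del line of batch 1, and 1 to 2 keratins in the INTS8 line. A group left with 1 library is assumed to vary like the others.

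Replicate numbers did not pair the libraries (correlations of same-numbered deviations from -0.053 to 0.028). With a replicate block no call of the 3 genes changed, as for TMEM45B in the INTS11 line of batch 1 (limma adjusted p = 0.0466) and CDH17 from 1 to 3 h (0.0335). In the dTAG13 libraries of the INTS8 line, counting error bears most on TMEM45B (75 and 64 units) and PRR15L (106 and 91); in batch 2 PRR15L had fewer units, down to 107.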
